A study of Mus musculus with 12 samples.

Results

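Macrophages that enter the liver in obesity differ from the resident Kupffer cells in the genes they use, and 9 genes were chosen here as marks of these recruited and lipid-associated cells: Itgax, Cx3cr1, Ccr2, Gpnmb, Trem2, Cd9, Lgals3, Mpeg1 and Cd68. They were found by symbol after the transcript IDs of the deposited table had been matched to GENCODE M21, which gave 8 genes of 13267. Gpnmb was not analysed here. All livers came from C57BL/6 mice made obese and steatotic by a high-fat diet. For 6 weeks, 6 mice carried a subcutaneous pellet of 4-hydroxyphenylacetic acid (4-HPAA), a phenolic acid that gut bacteria make from polyphenols, and 6 control mice carried the scaffold alone. The 1 comparison of the design is 4-HPAA against scaffold control, and the question set to these genes is whether their level, or its spread between mice, differed. Livers were flushed with saline before freezing. The labels used here give no sex, age, dose or diet composition. They number the livers 1 to 6 in each group without saying that a number marks a litter, cage or day, and the p-values below rest on the spread between those livers.

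In a fatty liver, monocytes leave the blood through the chemokine receptor Ccr2, settle along the sinusoids and turn into macrophages. Those that take up lipid from dying or overloaded hepatocytes are known as lipid-associated macrophages and cluster around large droplets. Their receptor Trem2 binds lipids and lipoproteins and signals through the adaptor Tyrobp, while Gpnmb, Cd9 and Lgals3 are other genes by which these cells are usually recognised. Mpeg1 and Cd68 mark phagocytes in general, Kupffer cells included.

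Each value below is a normalised read count, that is, a count that the authors scaled by 1 factor per library and rounded. The libraries summed to between 24602634 and 25255413 in 4-HPAA mice and between 22869813 and 25255447 in control mice, which the scaling factors turn into an estimated 22389551 to 25924799 reads in 4-HPAA libraries and 23949401 to 26921499 in control libraries. Albumin took 4.98 to 7.58% of the total in 4-HPAA livers and 7.59 to 8.72% in control livers, so hepatocyte RNA was abundant in both. 4-HPAA replicate 3 was the library least like the others, with a median Pearson correlation of 0.969 with the other 11 over all genes tested, where the rest had 0.978 to 0.986. Itgax, Cx3cr1 and Ccr2 are given below with and without it and 4-HPAA replicate 4.

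The 8 genes lie apart in the genome (GRCm38, GENCODE M21): Itgax on chr7:128129547-128150657, Cx3cr1 on chr9:119901616-120069879, Ccr2 on chr9:124101950-124113557, Trem2 on chr17:48346401-48354147, Cd9 on chr6:125460266-125494791, Lgals3 on chr14:47367751-47386160, Mpeg1 on chr19:12460779-12465283 and Cd68 on chr11:69664213-69666153. Exons of Cx3cr1 share 78 bases with the antisense gene Gm33858 and those of Cd9 share 218 bases with Gm26728 on the opposite strand. No source used here says whether reads were counted by strand, so reads of these partners cannot be told apart from those of Cx3cr1 and Cd9. The table gives each gene under 1 transcript ID. For Trem2 this is Trem2-204, a processed transcript of 526 bases without a coding frame, and for Lgals3 it is Lgals3-202, of 368 bases. Whether reads were counted over the gene or over that transcript is not stated, so the level of Trem2 in particular is uncertain.

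The promoters were searched for motifs of myeloid and lysosomal gene control, and the windows that held a match are printed to show where it lies. RefSeq (GRCm38.p6) listed all 8 genes, and the 250 bases before each start were read for AGGAAGT, a core of the binding motif of PU.1, the transcription factor of the myeloid lineage, for CACGTG, the E-box read by MITF and TFEB, and for TGANTCA, the AP-1 motif, on both strands. AP-1 letters were found for 3 of 8 genes, Itgax, Trem2 and Cd68, against 6.75% of the 32851 windows of all promoters. The PU.1 and E-box letters are in none of the 8 windows and in 7.69% and 6.02% of all windows. The AP-1 letters, shown in capitals, lie 56 bases before the start in Itgax, 9 bases before it in Trem2, and 149 and 24 bases before it in Cd68.
Itgax (chr7:128129300-128129549, plus strand): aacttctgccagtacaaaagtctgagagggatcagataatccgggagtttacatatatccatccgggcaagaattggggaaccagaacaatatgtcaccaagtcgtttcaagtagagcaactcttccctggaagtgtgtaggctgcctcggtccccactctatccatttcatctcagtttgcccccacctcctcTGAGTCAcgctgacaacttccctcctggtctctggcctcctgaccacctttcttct
Trem2 (chr17:48346151-48346400, plus strand): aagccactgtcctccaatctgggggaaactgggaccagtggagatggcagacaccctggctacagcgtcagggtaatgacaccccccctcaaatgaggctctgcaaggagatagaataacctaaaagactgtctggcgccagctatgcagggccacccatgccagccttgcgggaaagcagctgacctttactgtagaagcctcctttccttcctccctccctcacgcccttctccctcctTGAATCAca
Cd68 (chr11:69666171-69666420, minus strand): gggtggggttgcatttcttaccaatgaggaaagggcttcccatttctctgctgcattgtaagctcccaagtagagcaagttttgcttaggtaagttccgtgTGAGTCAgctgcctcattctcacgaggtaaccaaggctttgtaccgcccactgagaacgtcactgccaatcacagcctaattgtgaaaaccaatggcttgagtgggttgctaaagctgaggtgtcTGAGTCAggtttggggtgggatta

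The surface receptor genes Itgax, Cx3cr1 and Ccr2 averaged lower in 4-HPAA livers (Itgax 19.8 ± 4.12 against 46.5 ± 25.4 in control livers, Cx3cr1 17.0 ± 11.1 against 34.5 ± 12.9, Ccr2 25.3 ± 16.8 against 42.5 ± 20.2; SD, n = 6 each). Trem2, Cd9 and Lgals3 had negative differences, Mpeg1 and Cd68 positive ones, all with an unadjusted p over 0.05. None passed: limma on log2(value + 1) called 0 of 8 genes after Benjamini-Hochberg adjustment over all genes (adjusted p under 0.05), where it called 0.0% of the 12720 tested. At an unadjusted p under 0.05 there were 3 of 8, Itgax, Cx3cr1 and Ccr2, all lower, where 14.8% of all genes lay under this threshold, 7.56% lower and 7.26% higher. The groups overlapped in all 8, and 0.66% of all genes had groups that did not overlap. The exact permutation test over mice gave 2 of 8, Itgax and Cx3cr1. As log2 differences, 4-HPAA minus control throughout, the median of the 8 genes was −0.34 and that of all genes −0.00092, and 6 of 8 were negative against 50.2% of all genes. In whole liver, fewer cells of a type and less RNA per cell cannot be told apart.

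**Figure D1:**
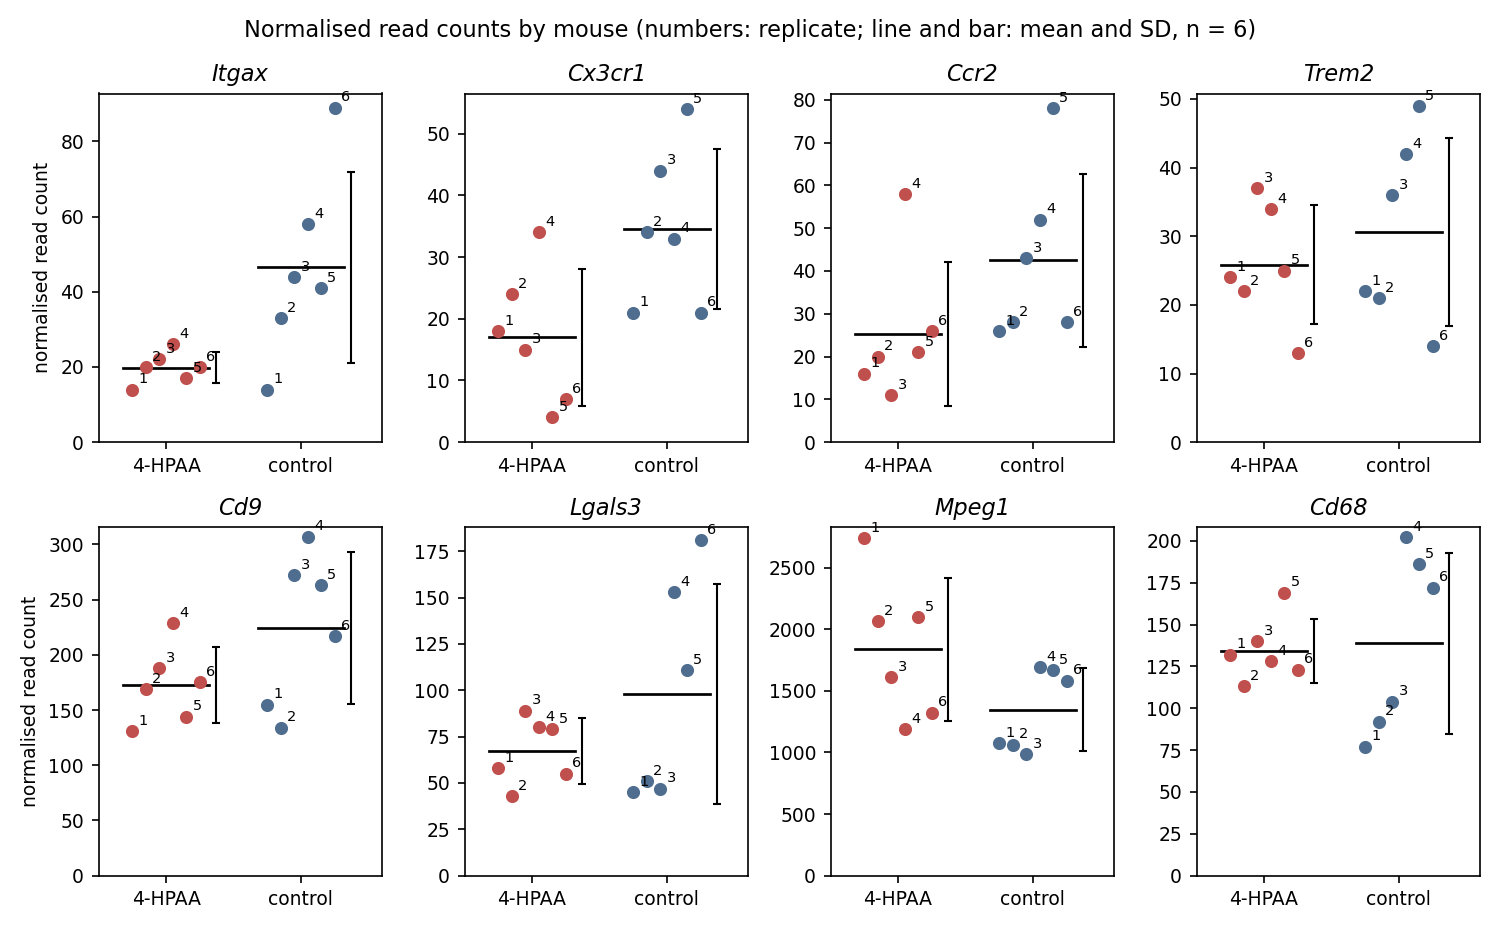
Normalised read count (vertical axis, from 0) of each gene in each liver, with 4-HPAA mice at the left and control mice at the right of each panel, numbered by replicate. The horizontal line is the mean and the bar the SD of 6 mice. The 6 4-HPAA mice lie between 14 and 26 for Itgax, where control mice lie between 14 and 89.

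Itgax encodes the integrin CD11c, an adhesion receptor of recruited macrophages and of dendritic cells. Its normalised read counts were 14, 20, 22, 26, 17 and 20 in 4-HPAA replicates 1 to 6, against 14, 33, 44, 58, 41 and 89 in control replicates 1 to 6. Every 4-HPAA liver lay within a narrow band at the bottom of the control range, and 5 of 6 control livers lay above the highest 4-HPAA liver, while control replicate 1 shared the lowest value. Itgax thus differed by −1.02 ± 0.34 on the log2 scale (SE; limma, unadjusted p = 0.00933, adjusted p = 0.206; exact permutation test, two-sided, p = 0.0216). It ranged from −1.31 without control replicate 1 (unadjusted p = 0.000161, adjusted p = 0.0982, limma) to −0.80 without control replicate 6, the liver at 89. Estimated reads behind these values were only 12 to 27 per 4-HPAA library and 14 to 87 per control library.

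Cx3cr1, the receptor for the membrane-bound chemokine fractalkine, is carried by patrolling monocytes and by macrophages that derive from them. It was counted at 18, 24, 15, 34, 4 and 7 in 4-HPAA replicates 1 to 6, against 21, 34, 44, 33, 54 and 21 in control replicates 1 to 6. Of the 4-HPAA livers 4 lay below the lowest control, replicates 5 and 6 far below it, and replicates 2 and 4 lay within the control range. On the log2 scale Cx3cr1 differed by −1.18 ± 0.43 (SE; limma, unadjusted p = 0.0157, adjusted p = 0.236; exact permutation test, two-sided, p = 0.0325). With values near 10, counting alone is coarse: replicate 5 rests on an estimated 4 reads. A pseudocount of 10 in place of 1 brought the difference to −0.78.

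Ccr2 is the receptor for Ccl2 that draws inflammatory monocytes out of marrow and blood. Its counts were 16, 20, 11, 58, 21 and 26 in 4-HPAA replicates 1 to 6, against 26, 28, 43, 52, 78 and 28 in control replicates 1 to 6. Replicate 4 stood alone among 4-HPAA livers, above 5 of 6 controls, and 4 of the other 4-HPAA livers lay below the lowest control, with replicate 6 level with it. Ccr2 differed by −0.80 ± 0.36 on the log2 scale (SE; limma, unadjusted p = 0.0446, adjusted p = 0.325), and the exact permutation test did not pass (two-sided, p = 0.0758). Without 4-HPAA replicate 4 the difference was −1.07 (limma, unadjusted p = 0.004, adjusted p = 0.0919), and without 4-HPAA replicate 3, the lowest liver, it was −0.61 (limma, unadjusted p = 0.101). A log2 difference of −0.80 or lower was found for 1.85% of all genes tested. Without replicate 4, Itgax stood at −1.10 and Cx3cr1 at −1.43 (limma, adjusted p = 0.129 and 0.0906), and without replicate 3 at −1.05 and −1.20 (adjusted p = 0.168 and 0.194).

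Trem2, the lipid receptor after which lipid-associated macrophages are often named, had groups that overlapped. Its counts were 24, 22, 37, 34, 25 and 13 in 4-HPAA replicates 1 to 6, against 22, 21, 36, 42, 49 and 14 in control replicates 1 to 6. The groups shared most of their range, with 1 low liver each, and 2 of 6 control livers lay above the highest 4-HPAA liver. Its log2 difference was −0.19 ± 0.32 (SE; limma, unadjusted p = 0.567), and with 1 library left out it ranged from −0.38 to −0.01.

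Cd9, a tetraspanin of the cell surface that many cell types besides macrophages carry, was counted at 131, 169, 188, 229, 144 and 175 in 4-HPAA replicates 1 to 6, against 155, 134, 272, 307, 263 and 217 in control replicates 1 to 6. All 6 4-HPAA livers lay below the control median of 240.0, yet 5 of them lay within the control range. The log2 difference was −0.34 ± 0.20 (SE; limma, unadjusted p = 0.118, adjusted p = 0.458). Lgals3, or galectin-3, is a sugar-binding protein that activated macrophages secrete. It was counted at 58, 43, 89, 80, 79 and 55 in 4-HPAA replicates 1 to 6, against 45, 51, 47, 153, 111 and 181 in control replicates 1 to 6. The controls fell into a low and a high set with the 4-HPAA livers between and among the low ones, and the log2 difference was −0.35 ± 0.36 (SE; limma, unadjusted p = 0.344). With 1 library left out it ranged from −0.52, without control replicate 1, to −0.13, without control replicate 6.

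Mpeg1 encodes perforin-2, a pore-forming protein of the phagosome. Its counts were 2742, 2066, 1612, 1188, 2097 and 1323 in 4-HPAA replicates 1 to 6, against 1073, 1064, 988, 1695, 1669 and 1583 in control replicates 1 to 6. 4-HPAA replicates 1, 2 and 5 lay above every control, and replicates 3, 4 and 6 lay within the control range. The log2 difference was 0.43 ± 0.21 (SE; limma, unadjusted p = 0.0615, adjusted p = 0.362; exact permutation test, two-sided, p = 0.11). With 1 library left out it ranged from 0.30, without 4-HPAA replicate 1, to 0.54, without 4-HPAA replicate 4. The acute phase gene Saa1, named after its values were seen, was at 37622, 63934, 12759, 2844, 27065 and 2196 in the same 4-HPAA livers, so the 3 livers with the most Mpeg1 also had the most Saa1, against 1270 to 2690 in control livers. The part of the acute phase response in the level of Mpeg1 was not tested.

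Cd68, a glycoprotein of phagocyte lysosomes, averaged 134 ± 19.3 in 4-HPAA livers and 139 ± 53.9 in control livers (SD, n = 6 each). Its counts were 132, 113, 140, 128, 169 and 123 in 4-HPAA replicates 1 to 6, against 77, 92, 104, 202, 186 and 172 in control replicates 1 to 6. All 6 4-HPAA livers lay in the middle of the control range, inside the gap between control replicates 1 to 3 and 4 to 6. The log2 difference was 0.04 ± 0.23 (SE; limma, unadjusted p = 0.876), and its sign turned with single libraries left out.

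**Figure D2:**
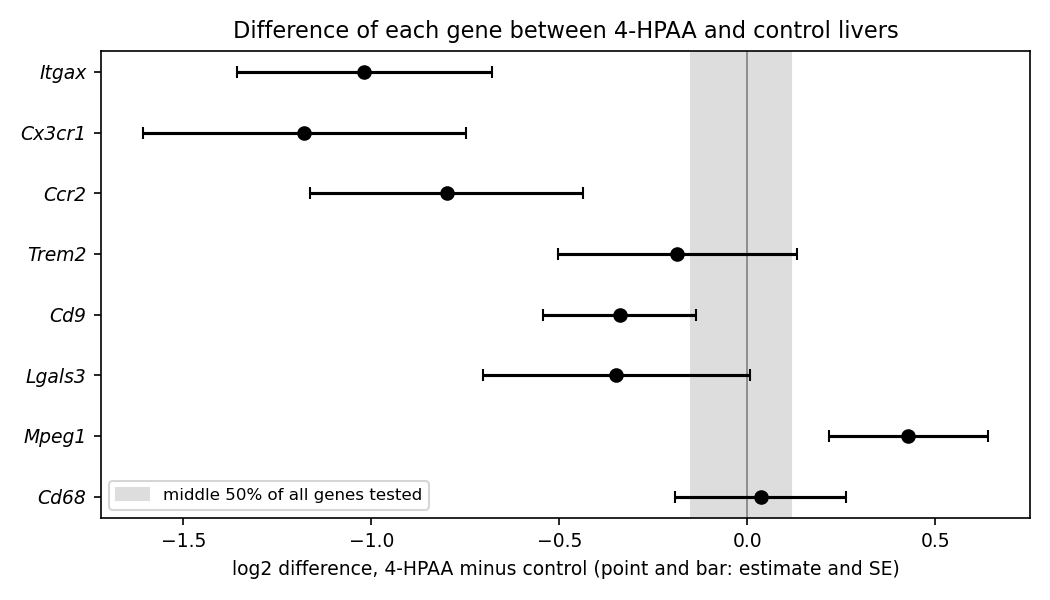
Log2 difference of each gene (4-HPAA minus control; point and bar are the limma estimate and its SE, 6 mice in each group), with the band that holds the middle 50% of all 12720 genes, from −0.15 to 0.12. Itgax, Cx3cr1 and Ccr2 lie furthest to the left and Mpeg1 is alone at the right, at 0.43.

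The spread between mice differed by gene. Earlier results of these data had already shown wide spread in control mice for a list of macrophage genes. The counts and p-values for spread below are therefore not independent of what was already seen. Across all genes tested the 4-HPAA group was the more variable: the SD of log2(value + 1) was larger in control mice for 31.1% of genes. Among the 8 genes it was larger in control mice for 5, and at least 2 times as large for 3 of 8, Cd68, Itgax and Lgals3, where 4.77% of all genes reached that ratio. For Cd68 the SD was 0.20 in 4-HPAA mice and 0.59 in control mice, a ratio (control over 4-HPAA) of 2.99 that 1.13% of genes matched or passed. Itgax had 0.29 and 0.87, a ratio of 2.97, and Lgals3 had 0.40 and 0.90, a ratio of 2.27. Cx3cr1 was the reverse, with 1.05 in 4-HPAA mice and 0.54 in control mice, a ratio of 0.51. Ccr2 (0.77 and 0.62), Trem2 (0.51 and 0.67), Cd9 (0.28 and 0.48) and Mpeg1 (0.45 and 0.37) lay nearer to equal spread.

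A Levene-type test, limma on absolute deviations from the group mean, called 0 of 8 genes and 0.0% of all genes at an adjusted p under 0.05. That count of 0 does not show that the spread was equal. At an unadjusted p under 0.05 there were 3 of 8 wider in control, against 2.3% of all genes, while 11.0% of all genes were wider in 4-HPAA. The 3 were Cd68 (limma, adjusted p = 0.287), Lgals3 (adjusted p = 0.349) and Itgax (adjusted p = 0.37). They rest on the same control mice, in which Cd68 rose and fell with Lgals3 (Pearson r = 0.93) and with Itgax (r = 0.78). The count of 3 is therefore not a count of separate observations. In a permutation test of deviations from the group median, Cd68 and Lgals3 each had p = 0.00649 (two-sided) and Itgax p = 0.197. The deviations were not centred anew in each split, so these p-values are approximate. By limma on deviations from the group median, the unadjusted p was 0.0117 for Cd68, 0.0532 for Lgals3 and 0.0904 for Itgax. The count of 3 became 1, Cd68 alone, with limma on deviations from the group median, and 1 without control replicate 1, without control replicate 6 or without 4-HPAA replicate 6. For Itgax in 4-HPAA mice, the coefficient of variation of 20.8% was no larger than the 23.4% that counting error alone would give at its estimated reads. In control mice it was 54.5%, where counting would give 17.0%. For Cd68 the values were 14.4% against 8.84% from counting in 4-HPAA mice, and 38.9% against 8.97% from counting in control mice.

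**Figure D3:**
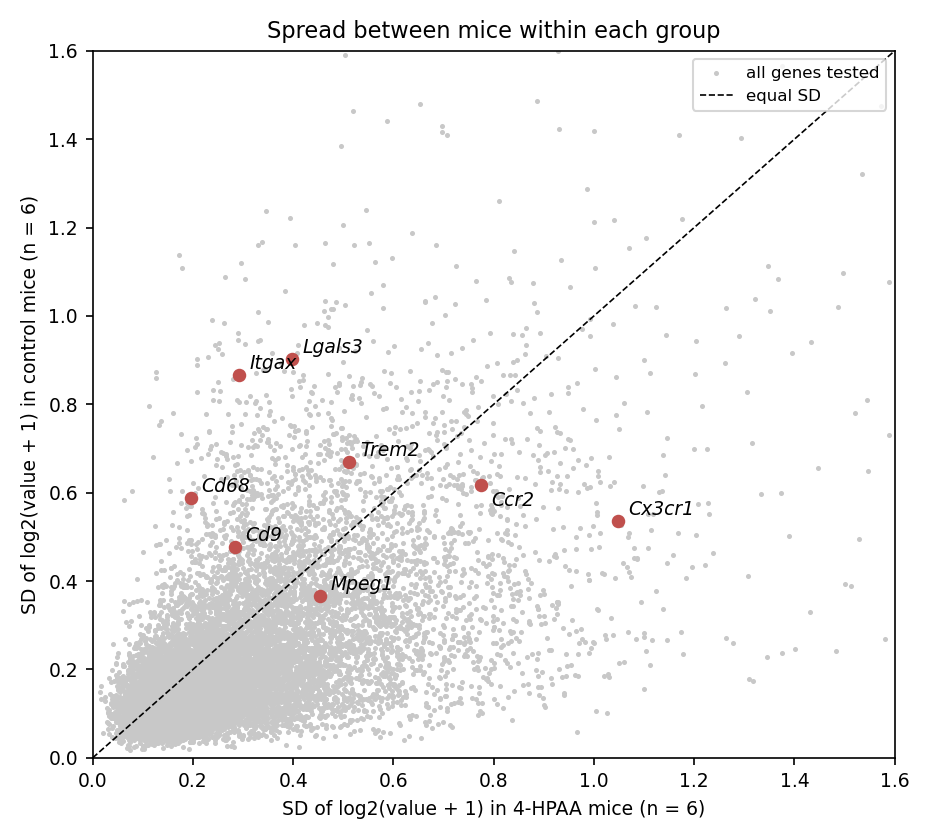
SD of log2(value + 1) between 6 4-HPAA mice (horizontal) and between 6 control mice (vertical) for all genes tested (grey) and the 8 genes (red, named), with the line of equal SD. Cd68, Itgax and Lgals3 lie far above the line and Cx3cr1 far below it, and 41 genes with an SD above 1.6 lie outside the axes.

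Within the control group, the genes fell into different orders of mice. Lgals3, Mpeg1 and Cd68 were higher in each of control replicates 4, 5 and 6 than in any of replicates 1, 2 and 3. Cx3cr1, Ccr2 and Trem2 did not follow this order: all 3 peaked in control replicate 5 and were at or near their lowest in replicate 6, where Itgax and Lgals3 had their highest values. Control replicates 4 and 5 lay above the control median in 7 of 8 genes and control replicate 1 in 0. Their estimated reads were 25835539, 26921499 and 24448642. Among 4-HPAA mice, replicate 4 had the highest Itgax, Cx3cr1, Ccr2 and Cd9 of its group and the lowest Mpeg1, and replicate 1 had the highest Mpeg1 and the lowest Itgax and Cd9. Replicate 6 lay above the control median in none of the 8 genes.

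**Figure D4:**
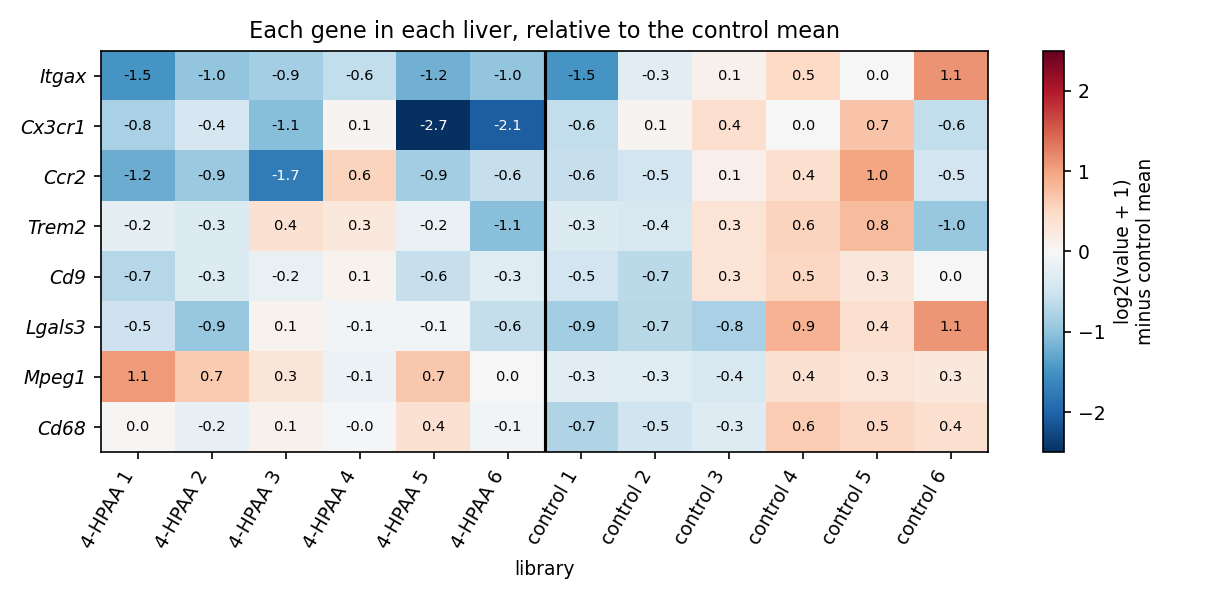
Each gene (rows) in each liver (columns, 4-HPAA left of control) as log2(value + 1) minus the mean of the 6 control mice, printed in each cell and coloured from blue (below) to red (above). In the Itgax row all 6 4-HPAA livers are below 0, and in the Cd68 row control replicates 1 to 3 are below 0 and control replicates 4 to 6 above it.

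All other genes tested, whatever their role, were then ranked by how closely they followed each of the 8. The measure was the Pearson correlation of log2(value + 1) over the 12 libraries after centring each group on its own mean. These are the highest of 12712 candidates, so they are given as a description with no p, and all points share their libraries. Lgals3 was followed most closely by Laptm5, a lysosomal membrane protein of leukocytes (r = 0.98, Spearman's rho = 0.96), Rac2, a GTPase of blood cells (r = 0.98, rho = 0.97), and the complement gene C1qb (r = 0.97, rho = 0.96). Near to Cd68 were the efferocytosis receptor Axl (r = 0.96) and the leukocyte receptor Ly9 (r = 0.95). Itgax was nearest to Hcls1, a substrate of kinases in blood cells (r = 0.89, and 0.79 without the 2 libraries farthest from the median of Itgax), and to Taf11 and Kcnj10, whose r of 0.89 and 0.88 dropped to 0.55 and 0.33 without those 2 libraries. Ccr2 was nearest to Pmepa1 (r = 0.93), to the fatty acid desaturase gene Scd1 (r = 0.93, rho = 0.93) and to the elongase gene Elovl5 (r = 0.92, rho = 0.80). The nearest to Cx3cr1 were Lama2, Aebp1 and Eef2k (r = 0.84, 0.83 and 0.83), to Trem2 Adck1, Abcb9 and Anxa8 (r = 0.94, 0.93 and 0.91), to Cd9 Slc22a21, Man1c1 and Top2a (each r = 0.89), and to Mpeg1 Mmp27, Prkdc and Sept11 (r = 0.92, 0.91 and 0.90).

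Levels of different genes were compared per kilobase of the longest coding transcript. In 4-HPAA livers the order was Mpeg1 at 424 ± 134 normalised counts per kilobase, Cd9 at 140.6 ± 28.2, Cd68 at 109 ± 15.7, Lgals3 at 47.5 ± 12.6, Trem2 at 23.7 ± 7.96, Itgax at 4.90 ± 1.02, Ccr2 at 4.42 ± 2.93 and Cx3cr1 at 3.78 ± 2.46 (SD, n = 6). In control livers these were Mpeg1 at 310.4 ± 77.5, Cd9 at 183 ± 56.0, Cd68 at 113 ± 43.9, Lgals3 at 69.1 ± 41.9, Trem2 at 28.2 ± 12.6, Itgax at 11.5 ± 6.27, Cx3cr1 at 7.68 ± 2.88 and Ccr2 at 7.42 ± 3.53 (SD, n = 6). Ranges of neighbours overlapped throughout in control livers. In 4-HPAA livers they were separate between Mpeg1 and Cd9, Cd68 and Lgals3, and Trem2 and Itgax. Over merged exons Cd68 came before Cd9 in both groups, and Trem2 dropped to the last place in control livers. In 4-HPAA livers Trem2 then averaged 5.22 per kilobase and Itgax 4.13, so their separation rests on the length used.

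Around these genes, 12 lists of related genes with 229 distinct members, of which 6 belong to more than 1 list, gave counts without a set test. No gene of any list had an adjusted p under 0.05 over all genes (limma). Without 4-HPAA replicate 4, 12 did: Vim, Clu, Wdfy4, Cd4, Cd34, Reln, Dcn, Col1a2, Col3a1, Alb, Cyp2f2 and Ambp, among 193 of all genes. The counts at an unadjusted p below stand against 14.8% of all genes, 7.56% lower and 7.26% higher. Those of negative differences stand against 50.2% of all genes. In the list of monocyte and recruited macrophage genes, 24 of 26 tested genes had negative differences, and 6 lower and 1 higher had an unadjusted p under 0.05. Their median was −0.35, and with 1 library left out it ranged from −0.50, without control replicate 3, to −0.11, without control replicate 6. Vim, the intermediate filament of motile and mesenchymal cells, averaged 285 ± 65.0 in 4-HPAA livers and 502 ± 96.7 in control livers (SD, n = 6 each; log2 difference −0.82 ± 0.15, limma, adjusted p = 0.103). The calcium-binding proteins S100a4 (−1.19 ± 0.37) and S100a6 (−0.77 ± 0.24) lay on the same side, and fibronectin, Fn1, which hepatocytes also make, lay on the other at 0.34 ± 0.11 (adjusted p = 0.199, 0.199 and 0.206, limma). S100a4 was at 2 to 11 in 4-HPAA livers and at 7 to 26 in control livers. It passed the filter for testing (at least 10 in at least 6 libraries) mainly through control livers. Vim also had an adjusted p under 0.05 (limma) with a replicate block.

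In the list of the lipid-associated signature, 19 of 21 genes had negative differences with a median of −0.26, and 8 lower and 1 higher had an unadjusted p under 0.05 (limma). The smallest p belonged to Cd36, a fatty acid transporter that hepatocytes also express (−1.19 ± 0.38), to Lipa, the acid lipase of lysosomes (−0.27 ± 0.09), to the actin-capping protein gene Capg (−0.75 ± 0.27) and to Npc2, which moves cholesterol out of lysosomes (−0.28 ± 0.10). Lipa averaged 4795 ± 429 in 4-HPAA livers and 5790 ± 702 in control livers (SD, n = 6 each). Npc2 averaged 1742 ± 274.5 and 2100 ± 191. The part of cells other than macrophages in the levels of this list was not tested. Of the defining genes, Spp1, or osteopontin, averaged 1240 ± 278 in 4-HPAA livers and 1214 ± 262 in control livers, and the fatty acid-binding protein gene Fabp5 averaged 442.5 ± 339 in 4-HPAA livers and 435 ± 313 in control livers (SD, n = 6 each; limma, unadjusted p = 0.857 and 0.909). Spp1 is also in the list of cholangiocyte genes, so its level in whole liver cannot be read as that of macrophages alone. In the list of Trem2 signalling, 14 of 17 genes were negative, and the 3 with an unadjusted p under 0.05, 2 lower and 1 higher, are a share near that of all genes. The median was −0.19 (−0.24 without control replicate 1 to −0.10 without control replicate 6). Its adaptor gene Tyrobp averaged 152 ± 21.6 in 4-HPAA livers and 206 ± 106 in control livers (SD, n = 6 each; −0.30 ± 0.27, limma, unadjusted p = 0.285). The member on the higher side was Clu, an apolipoprotein of plasma that Trem2 can bind (0.41 ± 0.10, limma, adjusted p = 0.142). It averaged 48650 ± 6024 in 4-HPAA livers and 36520 ± 3463 in control livers, and the part of cells other than macrophages in this level was not tested. On the lower side were the adaptor gene Card9 (−0.51 ± 0.23) and the kinase gene Pik3cg, which averaged 9.67 ± 4.89 in 4-HPAA livers and 19.3 ± 6.19 in control livers. The lowest control value was 13 for both Card9 and Pik3cg, so control livers alone met the filter for testing.

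Of chemokines, colony-stimulating factors and their receptors, 14 of 18 tested genes were negative with a median of −0.24 (−0.13 without 4-HPAA replicate 2 and −0.15 without control replicate 4), and 3 lower and 0 higher had an unadjusted p under 0.05 (limma). These were Cxcl16, a membrane-bound chemokine (−0.48 ± 0.14), Cx3cl1, the ligand of Cx3cr1 (−0.58 ± 0.26), and Il34, a ligand of the macrophage growth factor receptor (−0.55 ± 0.25), with adjusted p = 0.185, 0.313 and 0.331. Cx3cl1 averaged 15 ± 4.60 in 4-HPAA livers and 22.8 ± 6.43 in control livers (SD, n = 6 each). Ccl2, the ligand of Ccr2, was at −0.24 ± 0.42 and the growth factor Csf1 at 0.02 ± 0.11 (limma, unadjusted p = 0.574 and 0.891), both named for their role after their values were seen.

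Of 20 resident Kupffer cell genes tested, 10 were negative and 10 positive, the median was 0.00 (−0.16 without control replicate 3 to 0.14 without control replicate 6), and 0 had an unadjusted p under 0.05 in limma. The summed level of the 5 defining markers Clec4f, Vsig4, Timd4, Cd5l and Marco ran from 1914 to 3806 in 4-HPAA livers and from 1280 to 6593 in control livers. General macrophage markers were wide in control mice in the same way as Cd68: Csf1r was at 543, 480, 583, 457, 696 and 419 in 4-HPAA replicates 1 to 6, and at 354, 403, 336, 720, 822 and 1002 in control replicates 1 to 6. The SD of its log2 values was 0.27 in 4-HPAA mice and 0.68 in control mice. In the Kupffer list the SD was larger in control mice for 16 of 20 genes, and in the monocyte list for 21 of 26, against 31.1% of all genes. It was larger for 13 of 21 lipid-associated, 9 of 17 Trem2 signalling and 7 of 18 chemokine genes. Among other cells the counts were 4 of 14 dendritic cell, 6 of 8 T, NK and B cell and 2 of 3 neutrophil genes. For cholangiocyte, endothelial, stellate and hepatocyte genes they were 2 of 10, 2 of 16, 5 of 15 and 7 of 15. A wider spread in control mice was thus not particular to the macrophage lists.

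Other cells carry some of the same receptors, and their genes were counted too. Itgax is also a dendritic cell gene, and 13 of 14 tested dendritic cell genes were negative. Their median was −0.32 (−0.39, −0.21, −0.18 and −0.14 without control replicates 1, 2, 4 and 5). At an unadjusted p under 0.05 (limma), 2 were lower and 0 higher. Flt3, the growth factor receptor of dendritic cell precursors, was at 3 to 11 in 4-HPAA livers and at 9 to 15 in control livers (−0.91 ± 0.29, adjusted p = 0.2), and Wdfy4, needed for cross-presentation, was at −0.78 ± 0.23 (adjusted p = 0.193). Flt3 passed the filter for testing mainly through control livers, where it was higher, so its place among the lower genes is no independent support. The summed level of the markers Flt3, Zbtb46 and Xcr1 ran from 173 to 250 in 4-HPAA livers and from 174 to 241 in control livers. Zbtb46 made up most of this sum, at 158 to 232 in 4-HPAA livers and 153 to 212 in control livers. Of T, NK and B cell genes 8 of 23 were high enough to test, with a median of −0.39 (−0.56 without control replicate 1 to −0.17 without control replicate 4). Of these 8, 6 were negative and Cd4 alone was under an unadjusted p of 0.05, higher at 1.69 ± 0.41 (limma, adjusted p = 0.142). The summed level of Cd3e and Cd3g was 8 to 24 in 4-HPAA livers and 4 to 28 in control livers. Of 13 neutrophil genes only 3 were tested, with a median of 0.16 (−0.02 without control replicate 1 to 0.52 without control replicate 4), and the 1 under an unadjusted p of 0.05 was Lcn2 (2.40 ± 0.70, limma, adjusted p = 0.193), which hepatocytes also make in the acute phase. The markers S100a8, S100a9 and Csf3r together were at 44 to 92 in 4-HPAA livers and at 28 to 151 in control livers.

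Cd9 and Vim are also expressed by bile duct, endothelial or stellate cells, whose genes were counted in the same way. The median was −0.51 over 15 stellate genes, of which 9 lower and 0 higher had an unadjusted p under 0.05 (limma), −0.22 over 16 endothelial genes (5 lower, 0 higher) and −0.30 over 10 cholangiocyte genes (2 lower, 0 higher). The cholangiocyte median was −0.36 without control replicate 6 and −0.19 without control replicate 3. Differences were negative for 15 of 15 stellate, 14 of 16 endothelial and 7 of 10 cholangiocyte genes, so a negative lean was not particular to the macrophage lists. Of hepatocyte genes 4 of 15 were negative. Led by smallest p, the stellate list had Reln (−0.65 ± 0.14), Col3a1 (−1.02 ± 0.22), Col1a2 (−0.94 ± 0.25) and Lum (−0.73 ± 0.22), and the endothelial list Cd34 (−1.05 ± 0.23), Pecam1 (−0.31 ± 0.12), Oit3 (−0.23 ± 0.09) and Eng (−0.19 ± 0.08). The cholangiocyte markers Krt19, Krt7, Epcam and Sox9 summed to 140 to 278 in 4-HPAA livers and to 175 to 244 in control livers. Hepatocyte genes had a median of 0.21 over 15, with 6 higher and 1 lower, albumin. The part of these other cells in the values of Itgax, Cx3cr1, Ccr2 and Cd9 was not tested.

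**Figure D5:**
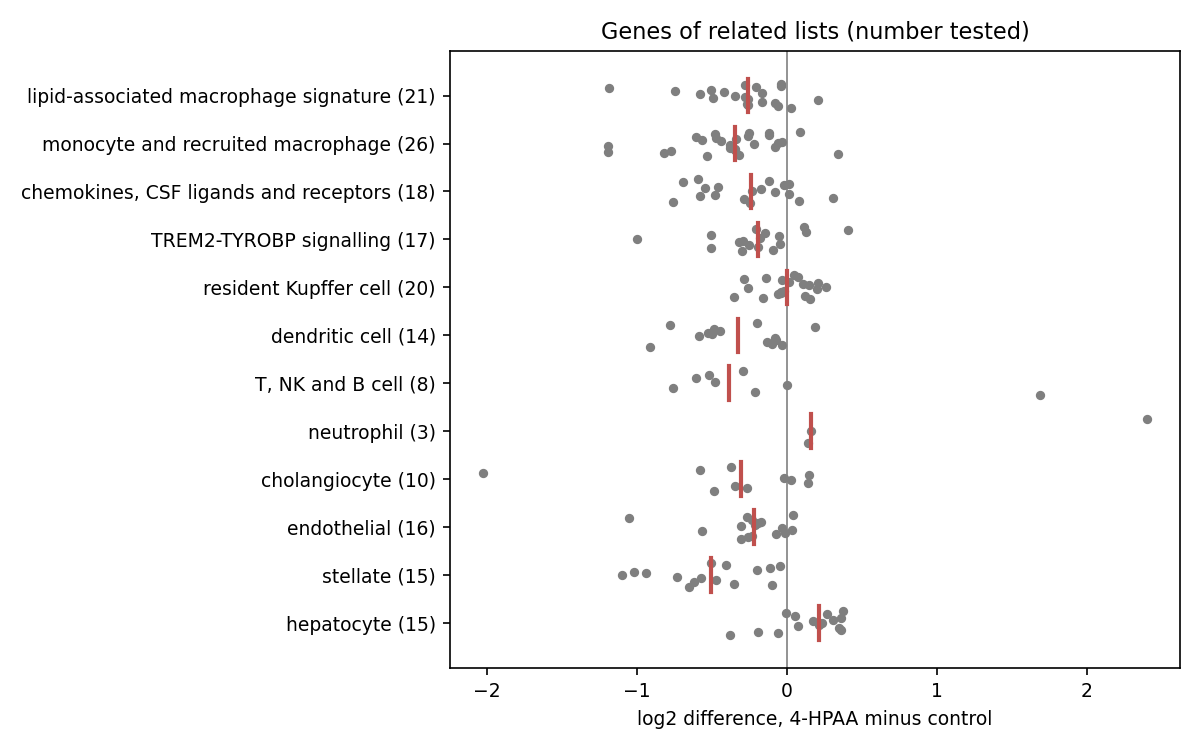
Log2 difference (4-HPAA minus control) of every tested gene of the 12 related lists (grey points) with the median of each list (red line) and, in brackets, the number tested. The medians are −0.35 for monocyte and recruited macrophage genes, 0.00 for Kupffer cell genes and −0.51 for stellate genes, and no gene passed over all genes tested.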

How the data were processed

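Liver RNA of 12 mice was sequenced, per the labels' protocols, from TruSeq directional mRNA libraries on an Illumina NovaSeq. Per the submitters' processing notes, GRCm38 was the build and the tools included STAR, HTSeq, cutadapt, edgeR, FastQC 0.11.9 and DESeq2 1.28.1, whose roles and order are not stated. The deposited values were handled as a score: whole numbers with low values missing or over-represented at regular spacing, as read counts scaled by 1 factor per library (0.85 to 1.13, fitted to that spacing) and rounded would give. The smallest is 2, and 13203 of 13267 IDs were named by GENCODE M21.

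Limma 3.58.1 in R 4.3.3 (trend, robust) took log2(value + 1) of the 12720 genes with at least 10 in at least 6 libraries, with Benjamini-Hochberg adjustment over all of them at 0.05. Fold changes on this scale understate low genes. Spread was tested with limma on absolute deviations from the group mean. All 8 genes passed the filter, which a gene can also pass through the livers of 1 group alone. The exact permutation test enumerated 924 splits and its smallest two-sided p is 0.00216. Precision is limited by the estimated reads, and counting error shown covers counting only. Of the 30 within-group pairs of libraries, none agreed within counting noise (chi-square per gene of 18.6 to 125). The fits were tested on simulated data.

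The genes, lists and tests were chosen with earlier results of these data known. Named are the 8 genes, up to 4 genes of smallest p per list, cell type markers and the 3 nearest genes by correlation, of which a few are not reported here. Saa1, Ccl2, Csf1 and Tyrobp were named after their values were seen. Alternatives were pseudocounts, filters, scalings, weights, a replicate block and each library left out. Tables and plots used Python 3.11.15 and matplotlib 3.10.9.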

Additional observations from a re-analysis of the deposited data

Results flagged for a closer look

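Of 16 sets of 6 values, 8 genes in 2 groups, 1 held a value far from the rest by Dixon's criterion, which chance meets in about 1 of 20: Ccr2 in 4-HPAA replicate 4, at 58, where the other 4-HPAA livers had 11 to 26. On the normalised read counts, the gap to the next liver was 0.68 of the group's range, against a critical value of 0.625. This does not show an outlier on the log2 scale that limma used. 4-HPAA replicate 4 also had the highest Itgax (26), Cx3cr1 (34) and Cd9 (229) of its group and the lowest Mpeg1 (1188). The part of this liver in the result was not tested beyond leaving it out, which gave a log2 difference of −1.07 for Ccr2.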

How the results depend on the processing

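In all limma alternatives for the difference, 0 of the 8 genes passed an adjusted p of 0.05. For spread, 0 passed in those run, which were a pseudocount of 10, median-of-ratios factors, deviations from the median, the replicate block and each library left out. Itgax and Cx3cr1 were lower at an unadjusted p under 0.05 in all 23 alternatives that kept them, from −1.31 to −0.80 and from −1.43 to −0.78, and Ccr2 in 11 of 23. Mpeg1 was higher at an unadjusted p under 0.05 in 6 of 24 (0.30 to 0.55 over all), and Cd9 lower in 2 of 24 (−0.47 to −0.24). The count under 0.05 was 3, 2 to 4 with 1 library left out, and 0 with the stricter filter (at least 50 in every library), which leaves only Cd9, Mpeg1 and Cd68. Cd68 turned negative without control replicate 1, 2 or 3 or 4-HPAA replicate 5, at −0.11, −0.06, −0.03 and −0.03, and was 0.16 at its highest, without control replicate 4. The count wider in control was 3, 1 to 3 with 1 library left out, and 1 with deviations from the median. The difference in absolute deviation (log2, 4-HPAA minus control) was 0.03 for Ccr2 and −0.019 with a pseudocount of 10, and with 1 library left out ranged from −0.18 to 0.17 for Ccr2 and from −0.035 to 0.10 for Mpeg1. All genes that passed numbered 0, but 139 with array weights, 7 with voom quality weights, 193 without 4-HPAA replicate 4 and 5 without control replicate 1, and list genes 0 to 12 with 1 library left out. The causes were not tested.

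Whether the replicate numbers pair the mice is not known, since the labels do not say. The correlations of deviations between same-numbered libraries were 0.21, −0.07, 0.24, 0.28, −0.01 and −0.18, and 2 of 6 correlated best with their own number. These 6 values cannot show whether same-numbered mice shared a cage or day. With a replicate block 4 of 8 genes had an unadjusted p under 0.05, 0 passed, 11 of all genes passed, and of list genes 1, Vim. Depth limits Itgax, Cx3cr1, Ccr2 and Trem2, at under 100 estimated reads per library.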
